A study of Homo sapiens with 5 samples.

Results

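The Frizzled receptors are the cell-surface receptors through which cells read secreted Wnt proteins. The members were taken by symbol as the rows FZD1 to FZD10, which are 10 of the 36601 genes counted at D0 to D10 and 10 of the 33538 counted at D22 to D26. The level of each receptor was followed through 8 single-cell RNA-seq libraries of the differentiation of human embryonic stem cells towards GnRH neurons, with the tankyrase inhibitor XAV939 compared with no XAV939 at D5 and D10. All 10 receptors had UMIs (unique molecular identifiers, each one captured RNA molecule) in all 8 libraries, and their levels ran from 0.0172 CPM (UMIs of the receptor in each 1000000 UMIs of the library) for FZD10 to 245 CPM for FZD5, both in D10_XAV939.

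A Frizzled receptor spans the membrane as a bundle of helices and binds Wnt through a cysteine-rich domain outside the cell. With the co-receptors LRP5 and LRP6 it signals through Dishevelled to stabilise β-catenin, which acts with TCF and LEF factors on target genes, and with ROR, RYK or PTK7 it can signal without β-catenin, for example in cell polarity and axon guidance. XAV939 stabilises AXIN and so lowers β-catenin signalling downstream of the receptors. In the early neural plate, low Wnt signalling is a condition for forebrain fates, and Frizzled genes are expressed in distinct regions of the neural tube.

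All cells were wild-type WA09, an established embryonic line, and no group was a separate clone or transgenic line. D0 cells were undifferentiated. D5_dSMADi and D10_dSMADi cells had received dual SMAD inhibition (dorsomorphin and SB431542, which steer pluripotent cells to neural fate), and D5_XAV939 and D10_XAV939 cells the same with XAV939 added. D22, D24 and D26 cells had gone through dual SMAD inhibition, then FGF8, then the Notch pathway inhibitor DAPT, without XAV939, and were thawed from stocks frozen on the way. Each condition was 1 library, so no difference had a replicate check, no test was possible, and all intervals (95%, exact) cover counting error only.

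After the study's limits on cells, the libraries held 1008 to 11056 cells and 58073098 to 130440502 UMIs, with a median of 7180 to 69455.5 UMIs per cell. D0 to D10 were tagged and shared 1 droplet run. Their own tag was the highest in every barcode, and 0 barcodes were shared among them, against 1 to 37 between the other pairs of libraries. D22, D24 and D26 were separate untagged samples, 1 run each, so day and run cannot be told apart among them. They were counted on another reference, so levels across the 2 sets stand side by side without a ratio. The summed level of 6 pluripotency markers was 4785 CPM at D0 and 180 to 378 CPM at D5 and D10. The 5 of them counted in the other reference, without MIR302CHG, summed to 2.33 to 56.9 CPM at D22 to D26. UMIs come from the 3′ end of the RNA and were not divided by transcript length, so orders between receptors are orders of captured molecules.

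The promoters of the 4 receptors that stood past 2-fold with XAV939 on more than 50 UMIs are shown, since β-catenin acts on its targets through TCF and LEF sites. They are the 250 bases before the start of the gene in RefSeq (GRCh38.p14), 5′ to 3′ on the strand of the gene, and capitals mark GGGCGG (the GC box), CCAAT and TATAAA, on either strand. FZD1 lies at chr7:91264183-91264432 (plus strand), FZD5 at chr2:207769907-207770156 (minus), FZD8 at chr10:35642297-35642546 (minus) and FZD9 at chr7:73433528-73433777 (plus).
FZD1: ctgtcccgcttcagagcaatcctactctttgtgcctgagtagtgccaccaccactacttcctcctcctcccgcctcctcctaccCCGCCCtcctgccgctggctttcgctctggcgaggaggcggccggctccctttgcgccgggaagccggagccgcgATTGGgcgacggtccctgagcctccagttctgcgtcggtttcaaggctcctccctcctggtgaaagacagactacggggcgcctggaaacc
FZD5: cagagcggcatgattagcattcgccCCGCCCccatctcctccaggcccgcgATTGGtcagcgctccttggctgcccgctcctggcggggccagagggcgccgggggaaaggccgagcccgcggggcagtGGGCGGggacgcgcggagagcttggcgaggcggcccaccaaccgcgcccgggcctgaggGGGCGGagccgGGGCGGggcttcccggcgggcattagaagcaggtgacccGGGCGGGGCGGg
FZD8: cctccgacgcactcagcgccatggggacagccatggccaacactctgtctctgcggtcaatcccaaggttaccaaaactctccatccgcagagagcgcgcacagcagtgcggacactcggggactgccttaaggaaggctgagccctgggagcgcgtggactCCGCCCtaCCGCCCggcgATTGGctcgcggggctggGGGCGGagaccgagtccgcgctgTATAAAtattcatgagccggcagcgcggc
FZD9: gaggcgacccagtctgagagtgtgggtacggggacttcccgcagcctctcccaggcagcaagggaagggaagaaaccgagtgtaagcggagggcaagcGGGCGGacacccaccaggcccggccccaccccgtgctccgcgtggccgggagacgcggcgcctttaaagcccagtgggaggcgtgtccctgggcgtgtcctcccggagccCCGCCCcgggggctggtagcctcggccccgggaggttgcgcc
CTTTGA, a form of the TCF and LEF core, was in none of these 4 windows on either strand. It is in 11.2% of the 35116 RefSeq promoters of this length, so no match in 4 windows is near the background. Other forms of the core, such as CTTTGT in the FZD1 window, were not searched for. FZD5 has 6 GGGCGG matches, FZD8 3, FZD9 2 and FZD1 1, and 42.6% of all promoters have at least 1. CCAAT, which 32% of promoters hold, stands 91 bases before the start in FZD1, 199 in FZD5 and 70 in FZD8, and FZD9 has none. TATAAA is in FZD8 alone of the 4, 29 bases before the start, and in 10.7% of promoters. G and C make up 65.2% of the window in FZD1 and FZD8, 72.4% in FZD9 and 76.8% in FZD5, against a median of 58.0%. FZD4, the fifth member whose window was read, has no CTTTGA match either, has 6 GGGCGG matches and is 80.8% G and C. No window was read for FZD2, FZD3, FZD6, FZD7 and FZD10. These matches describe the letters only, and binding was not measured.

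The genes are scattered over the genome (GRCh38, GENCODE v44). FZD1 and FZD9 are on chromosome 7, at 91264433 to 91271326 and 73433778 to 73436120. FZD5 (207762598 to 207769906) and FZD7 (202033855 to 202038441) are on chromosome 2. FZD3 (28494205 to 28574267) and FZD6 (103298433 to 103332866) are on chromosome 8. FZD2 is on chromosome 17 (44557484 to 44561262), FZD4 on 11 (86945679 to 86955395), FZD8 on 10 (35638247 to 35642296) and FZD10 on 12 (130162459 to 130165740). The canonical transcript is a single exon in 6 members (FZD1, FZD2, FZD7, FZD8, FZD9 and FZD10), 2 exons in FZD4 and FZD5, 7 in FZD6 and 8 in FZD3. FZD4 overlaps the protein-coding PRSS23 on the other strand, and FZD6 overlaps the noncoding BAALC-AS1 and ENSG00000286337. FZD3 overlaps MIR4288, RNA5SP259 and ENSG00000290005, and FZD8 overlaps ENSG00000287528 and MIR4683. The remaining members overlap no listed gene.

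With XAV939, 3 receptors were at least 2-fold higher at D5 and the same 3 at D10: FZD5, FZD8 and FZD1. FZD5 went from 59.5 CPM in D5_dSMADi to 149 in D5_XAV939 and from 40.8 in D10_dSMADi to 245 in D10_XAV939, where it became the most abundant Frizzled. No receptor was 2-fold lower at D5, and FZD9 and FZD10 were at D10. Of all genes with more than 3 UMIs in 1 of the 2 libraries, 5.26% were at least 2-fold higher and 5.26% at least 2-fold lower at D5, and 5.28% and 9.53% at D10. Among genes with more than 50 UMIs, which leaves out FZD10, these shares were 1.64% and 1.45% at D5 and 2.48% and 4.35% at D10. The median log2 ratio over the 10 receptors was 0.14 at D5, with 0.05 over all genes, and -0.09 at D10, with -0.02 over all genes. Over the 9 receptors with more than 50 UMIs it was 0.18 at D5, with 0.05 over all such genes. At D10 it was 0.15, with -0.002 over all such genes, so its sign there depends on FZD10.

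FZD5 and FZD8 are close relatives in sequence, and both are known for expression in the anterior neural plate and developing eye. FZD5 stood at 19.5 CPM at D0, 59.5 in D5_dSMADi, 149 in D5_XAV939, 40.8 in D10_dSMADi, 245 in D10_XAV939, and at D22 to D26 at 14.5, 1.57 and 1.87. Both XAV939 libraries were above every other library of D0 to D10. The ratio was 2.51-fold at D5 (interval 2.43 to 2.60) and 6.0-fold at D10 (5.78 to 6.24). FZD5 ranked 92 from the top of 14630 genes with more than 50 UMIs at D5 and 47 of 14895 at D10. FZD8 stood at 6.26 CPM at D0, 3.94 in D5_dSMADi, 12.1 in D5_XAV939, 3.19 in D10_dSMADi, 20.7 in D10_XAV939, and at D22 to D26 at 24.8, 7.04 and 8.22. Its ratio with XAV939 was 3.06-fold at D5 (2.70 to 3.49) and 6.5-fold at D10 (5.67 to 7.48), ranks 50 and 38. FZD8 thus had ratios like those of FZD5 or larger, at a far lower level.

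FZD1, FZD2 and FZD7 form another branch of close relatives, of which FZD1 alone was past 2-fold with XAV939. FZD1 stood at 0.606 CPM at D0, 1.74 in D5_dSMADi, 4.35 in D5_XAV939, 2.44 in D10_dSMADi, 7.97 in D10_XAV939, 35.9 at D22, 6.81 at D24 and 5.95 at D26. It was 2.49-fold higher with XAV939 at D5 (2.05 to 3.05) and 3.27-fold at D10 (2.76 to 3.89), ranks 95 and 132. FZD2 stood at 40.9 CPM at D0, 163 in D5_dSMADi, 157 in D5_XAV939, 182 in D10_dSMADi and 146 in D10_XAV939, and at D22 to D26 at 39.8, 4.90 and 0.885. It differed little with XAV939, at a log2 ratio of -0.06 at D5 and -0.32 at D10 (-0.36 to -0.28). FZD7, a prominent Frizzled of pluripotent stem cells, stood at 59.3 CPM at D0, 57.9 in D5_dSMADi, 73.3 in D5_XAV939, 74.1 in D10_dSMADi, 50.9 in D10_XAV939, and at D22 to D26 at 12.6, 0.499 and 0.312. Its log2 ratio with XAV939 was 0.34 at D5 (0.29 to 0.40) and -0.54 at D10 (-0.61 to -0.48).

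FZD3 and FZD6 share a branch known for planar cell polarity, and FZD3 is required for the growth of axon tracts in the forebrain. FZD3 stood at 70.4 CPM at D0, 233 and 244 at D5 without and with XAV939, 184 and 237 at D10, and 186, 213 and 239 at D22, D24 and D26. It was the only member at 10 CPM or above in all 8 libraries. Its log2 ratio with XAV939 was 0.06 at D5 and 0.36 at D10 (0.33 to 0.40). FZD6 stood at 9.16 CPM at D0, 7.72 and 8.23 at D5, 9.67 and 6.49 at D10, and 3.15, 2.32 and 1.34 at D22 to D26. With XAV939 its log2 ratio was 0.09 at D5, with an interval that includes 0 (-0.06 to 0.25), and -0.58 at D10 (-0.76 to -0.40).

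FZD4, FZD9 and FZD10 were among the rarest receptors from D0 to D10. FZD4, the receptor for Norrin in retinal blood vessels, stayed between 2.11 and 2.62 CPM from D0 to D10 and stood at 3.66, 0.670 and 0.824 at D22 to D26. Its log2 ratio with XAV939 was 0.18 at D5 (-0.12 to 0.48) and 0.15 at D10 (-0.17 to 0.47). Over the whole libraries, a 1.5-fold difference in either direction thus lay outside both intervals. FZD9, which lies in the region deleted in Williams syndrome, stood at 1.21 CPM at D0, 1.07 in D5_dSMADi, 0.830 in D5_XAV939, 2.77 in D10_dSMADi, 1.07 in D10_XAV939, and at D22 to D26 at 1.62, 0.428 and 0.533. D10_dSMADi was the highest library of D0 to D10, and FZD9 was 2.59-fold lower at D10 with XAV939, on 62 UMIs against 218 (log2 ratio -1.37, -1.81 to -0.96). FZD10, first known from the dorsal neural tube, had 9 UMIs at D0, 4 and 3 at D5, 8 and 1 at D10, and 16, 4 and 2 at D22 to D26. At D10 its log2 ratio was -2.56 on 1 UMI against 8, with an interval from -8.03 to 0.34, so a difference was not detectable at this depth.

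**Figure D1:**
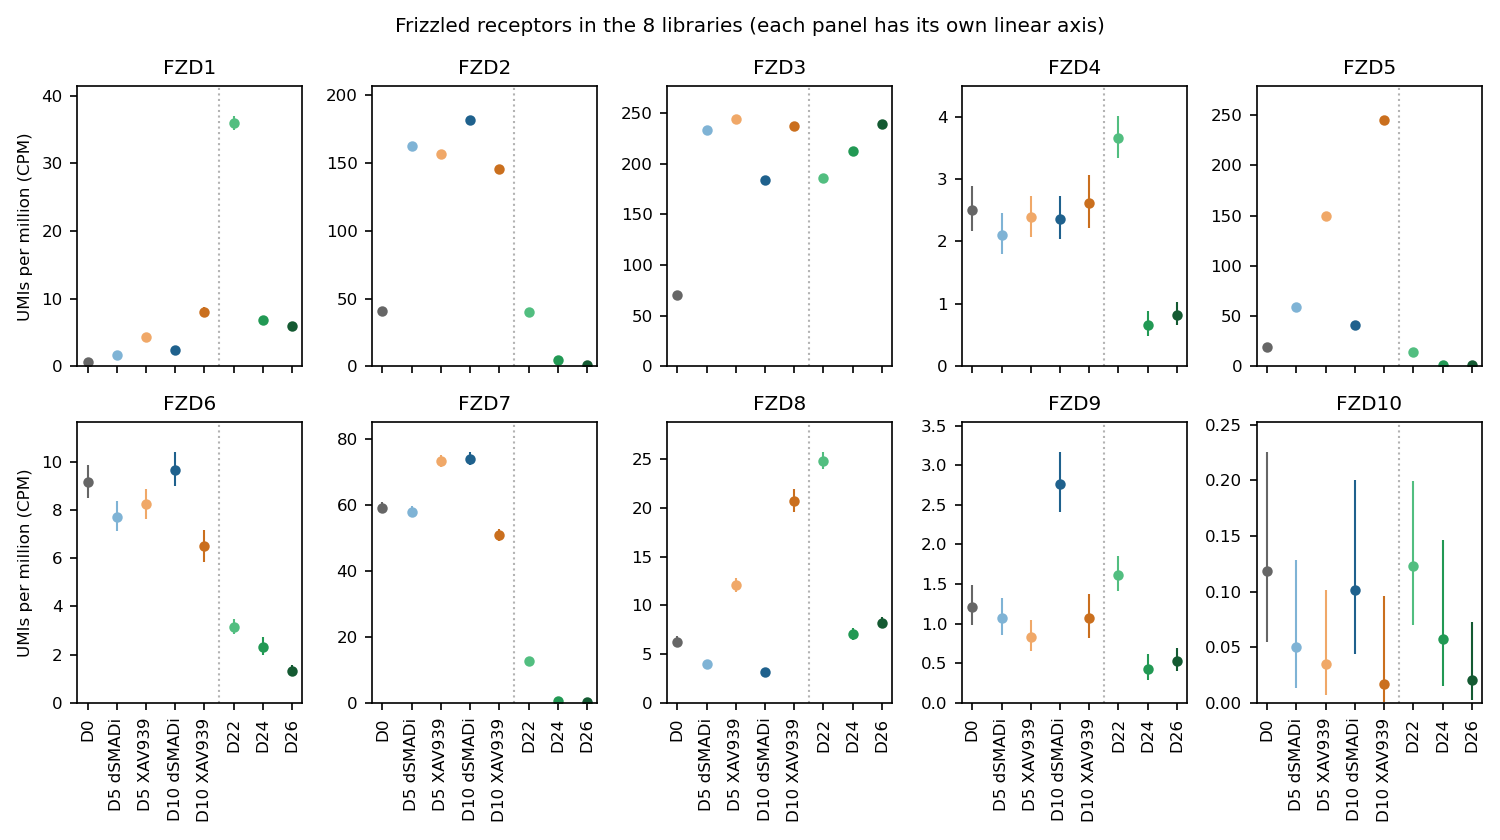
Level of each receptor in the 8 libraries, in CPM on a linear axis that differs between panels, with bars for the 95% counting interval and a dotted line between the libraries of the 2 references. Among D0 to D10 FZD5 peaks in D10_XAV939 at 245 CPM, and among D22 to D26 FZD1 and FZD8 are highest at D22. FZD3 stays at 184 CPM or above in every library after D0.

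**Figure D2:**
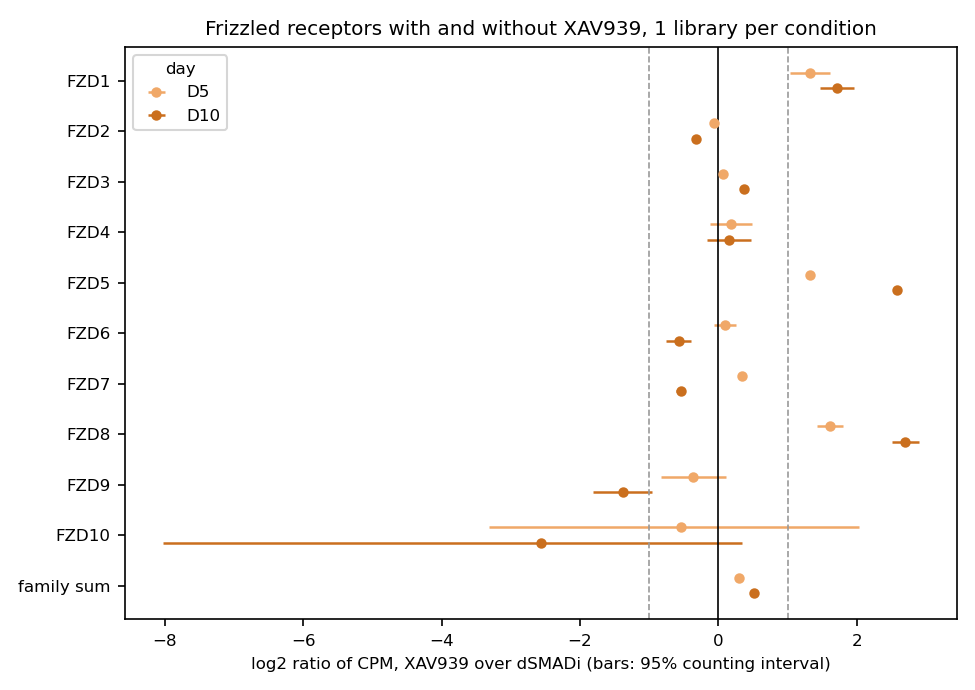
Log2 ratio of CPM with over without XAV939 for each receptor and for the summed family at D5 and D10, with bars for the 95% counting interval and dashed lines at 2-fold. FZD1, FZD5 and FZD8 lie right of the 2-fold line on both days, FZD9 lies left of it at D10, and the bars of FZD10 cross 0.

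The summed family was 1.23-fold higher with XAV939 at D5 (651 against 530 CPM, log2 ratio 0.30) and 1.43-fold at D10 (717 against 501, log2 ratio 0.52). FZD5 took 11.2% of the family's UMIs in D5_dSMADi (10.9 to 11.5) and 22.9% in D5_XAV939 (22.6 to 23.3), and 8.15% in D10_dSMADi (7.88 to 8.42) and 34.2% in D10_XAV939 (33.7 to 34.6). The share of FZD2 was lower with XAV939, 30.7% against 24.1% at D5 and 36.3% against 20.3% at D10. FZD3 made up 44% and 37.4% at D5, and 36.7% and 33.0% at D10. Its CPM had log2 ratios of 0.06 and 0.36 with XAV939, so this lower share went without a lower level. FZD8 and FZD1 stayed small in share even with XAV939, at 2.89% and 1.11% in D10_XAV939. Of 10 receptors, 4 stood at 10 CPM or above in D0, D5_dSMADi and D10_dSMADi (FZD2, FZD3, FZD5 and FZD7), and FZD8 joined them in both XAV939 libraries.

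The order of the levels in D0 was FZD3, FZD7, FZD2, FZD5, FZD6, FZD8, FZD4, FZD9, FZD1 and FZD10, with no overlap of intervals between neighbours. In D5_dSMADi it began with FZD3 and FZD2, followed by FZD5 and FZD7, whose intervals overlapped, as did those of FZD4 and FZD1 further down. In D10_dSMADi FZD3 and FZD2 overlapped at the top, and FZD8, FZD9, FZD1 and FZD4 overlapped each with the next. In D10_XAV939 the order was FZD5, FZD3, FZD2, FZD7, FZD8, FZD1, FZD6, FZD4, FZD9 and FZD10, again without overlap. FZD1 thus had rank 9 at D0 and 6 in D10_XAV939, and FZD7 rank 2 and 4.

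**Figure D3:**
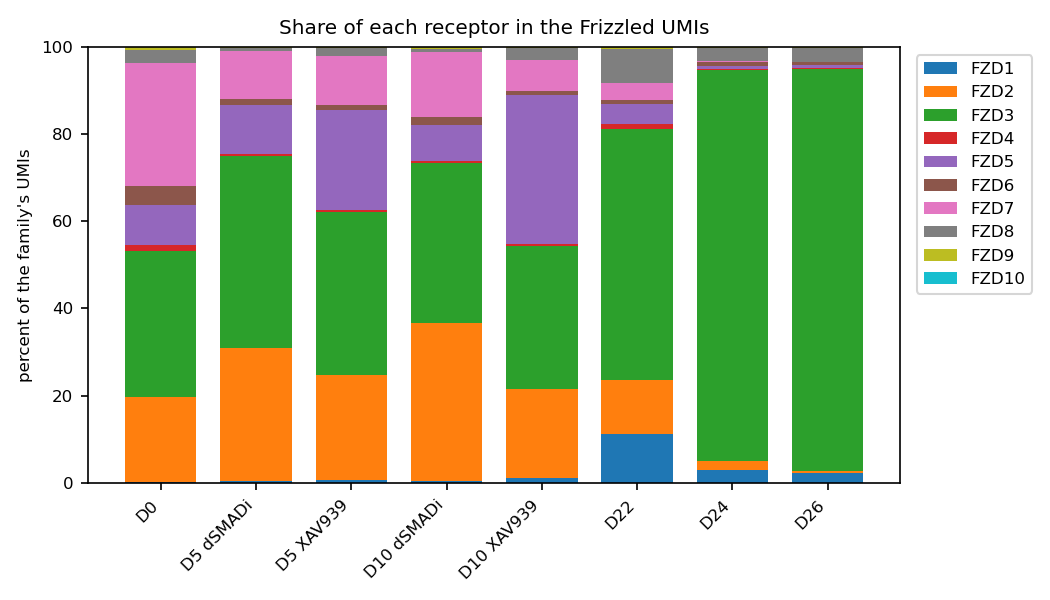
Share of each receptor in the family's summed UMIs, in percent, stacked for each of the 8 libraries. The FZD5 segment is widest in D10_XAV939 at 34.2%, and the FZD3 segment grows from 57.7% at D22 to 92.3% at D26.

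The share of cells with a FZD5 UMI was higher in the XAV939 libraries too. After each cell was thinned to 10000 UMIs, which left out no cell, 36.4% of cells had a FZD5 UMI in D5_dSMADi and 72.1% in D5_XAV939, and 29.2% in D10_dSMADi and 81.6% in D10_XAV939, against 16.4% at D0. At this depth D0 cells had a FZD1 UMI in 0.298%. No cell type that lacks FZD5 was fixed for this shared run and free RNA was not measured, so its part in these shares was not tested. Unthinned, the shares were 67.3%, 92.5%, 61.1%, 93.1% and 67.5% in the same order, at median depths of 28789, 26630, 31112.5, 24290.5 and 69455.5 UMIs. The median cell thinned to this depth held 0 FZD5 UMIs in both libraries without XAV939, 1 in D5_XAV939 and 2 in D10_XAV939. FZD8 was seen in 4.30% and 10.1% of thinned cells at D5 and in 2.28% and 17.4% at D10, and FZD1 in 1.2% and 3.37% at D5 and 2.69% and 6.73% at D10.

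More kinds of Frizzled RNA were detected per cell with XAV939, with the same limit. The mean number of different receptors with a UMI in a thinned cell was 1.57 at D0, 2.57 and 3.11 at D5 without and with XAV939, and 2.50 and 3.09 at D10. Cells with 4 or more receptors made up 2.68% at D0, 16.4% in D5_dSMADi, 36.5% in D5_XAV939, 15.8% in D10_dSMADi and 35.5% in D10_XAV939. Cells with none made up 14.1% at D0 and 0.533% to 1.90% in the other 4. A receptor missing at this depth may still be expressed.

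**Figure D4:**
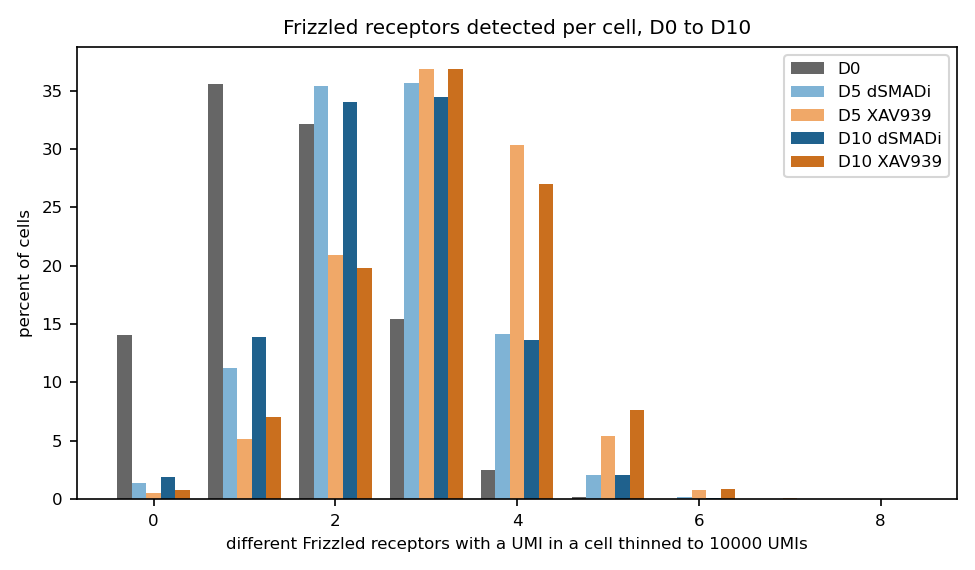
Percent of cells (vertical axis) by the number of different Frizzled receptors with a UMI after thinning to 10000 UMIs (horizontal axis), for D0 to D10. The peak is at 1 receptor for D0 (35.6%) and at 3 for both XAV939 libraries (36.9% each), and cells with 4 receptors are 30.3% in D5_XAV939 against 14.2% in D5_dSMADi.

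Clustering without the Frizzled genes put the cells of each early library almost wholly in clusters of their own. Treatment could thus be compared only between pairs of clusters, which were paired by cycling at D5 and not matched in cell state at D10. This comparison was added after the data were seen. At D5 the cycling clusters (PNP-like, after the study's proliferating neural progenitors) had log2 ratios of 1.34 for FZD5, 1.73 for FZD8 and 1.23 for FZD1, and the other pair of main clusters 1.39, 1.5 and 1.22. FZD4 was at 0.52 (0.07 to 0.98) in the cycling clusters and at -0.20 (-0.65 to 0.23) in the other pair, so there a 1.5-fold difference was not left out. At D10 the main XAV939 cluster, with 2102 of the 2168 cells of its library, was compared with each of the 2 clusters without XAV939. FZD5 was at 2.60 and 2.63, FZD8 at 2.64 and 2.87, FZD1 at 1.64 and 1.80, and FZD9 at -1.55 and -1.14. Together these clusters hold most cells of their libraries, so their ratios are not independent of those of the whole libraries.

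The one cluster that both D10 libraries shared was Newborn neuron-like (leading genes STMN2, NEFM and SST), with 61 cells of D10_XAV939 and 17 of D10_dSMADi. FZD5 there was 36.4 CPM with XAV939 and 5.69 without, on 54 and 2 UMIs (log2 ratio 2.68, 0.76 to 5.76). FZD8, on 5 and 1 UMIs (log2 ratio 0.24, -2.91 to 5.81), and FZD1, on 12 and 2 (0.51, -1.66 to 3.71), were under 2-fold, with intervals that include 0. FZD2 was higher with XAV939 in these cells (39.1 against 14.2 CPM, 1.46, 0.15 to 3.13) and FZD7 had 43 UMIs against 0, both opposite in direction to the whole D10 libraries. Over both libraries, FZD5 in this cluster was 30.5 CPM, and 18.7 without the cells called doublets, and FZD8 was 3.27 CPM on 6 UMIs and 1.24 on 2. Within D10_XAV939 these cells were lower than the main cluster in FZD5 (36.4 against 251 CPM, log2 ratio -2.78), FZD8 (3.37 against 21.2, -2.65) and FZD2 (39.1 against 148, -1.92). FZD3 (222 against 237 CPM) and FZD1 (8.09 against 7.95) had intervals that include no difference. A FZD5 UMI was found in 26.2% of these newborn neuron-like cells and in 95.1% of the main cluster, at median depths of 20953 and 24471 UMIs.

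The other genes of the pathway, taken as whole lists, were mostly within 2-fold with XAV939, as were most genes of any kind. Of all genes, 5.26% were at least 2-fold higher and 5.26% lower at D5, and 5.28% and 9.53% at D10, so a count of 0 in a short list is near the background. None of 6 co-receptors (LRP5, LRP6, ROR1, ROR2, RYK, PTK7) was past 2-fold, with log2 ratios from -0.16 to 0.18 at D5 and -0.30 to 0.40 at D10. None of the 3 Dishevelled genes, nor TSPAN12 (the FZD4 partner), nor SMO (the related Hedgehog transducer) was past it either. Of 5 genes for receptor turnover (RNF43, ZNRF3, LGR4, LGR5, LGR6), LGR5 was higher at D5 (0.238 to 0.530 CPM, log2 ratio 1.15) and D10 (2.62 to 5.92, 1.18). LGR4, an R-spondin receptor that protects Frizzled proteins from removal, was alike at D5 (87.7 and 86.9 CPM) and higher at D10 (16.2 to 44.1, 1.44). LGR6 was at 0 UMIs at D26.

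Targets and feedback genes of β-catenin were read as a check of the inhibitor. AXIN2 stood at 4.63 CPM without and 4.13 with XAV939 at D5, and at 4.24 and 3.22 at D10. LEF1 stood at 7.74 and 8.42 at D5 and 10.0 and 10.1 at D10, and NKD1 at 2.05 and 3.61 at D5 (log2 ratio 0.82). SP5 had 13 UMIs without and 3 with XAV939 at D5 (log2 ratio -2.24) and 1 in each library at D10. NOTUM had 15 and 8 UMIs at D5 (-1.03) and 13 and 2 at D10 (-2.26). AXIN2 (-0.17, -0.38 to 0.05) and NOTUM had intervals that include 0 at D5 and were lower at D10 (AXIN2 -0.40, -0.66 to -0.13), and NKD1 was higher on both days (0.29 at D10, 0.01 to 0.58). The 5 genes thus did not share a direction.

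Markers of other cell types and tissues moved with the treatment. The 7 newborn neuron markers summed to 15.7 CPM in D5_dSMADi and 21.0 in D5_XAV939, and to 39.6 and 182 at D10, where STMN2 stood at 20.2 and 113. The 5 roof plate and hem genes (LMX1A, MSX1, RSPO1, RSPO2, WNT3A) summed to 27.3 CPM in D5_dSMADi and 4.37 in D5_XAV939, mostly RSPO2 (23.0 and 1.5), and to 1.99 and 3.1 at D10. Of the retina markers, RAX stood at 52.6 and 58.1 CPM at D5 and 53.5 and 33.3 at D10, and SIX6 at 3.11 and 17.9 at D5 and 0.292 and 3.29 at D10. The 4 mesenchyme genes summed to 4.02 and 2.36 CPM at D5 and to 14.1 and 3.70 at D10, with 1 or more at 0 UMIs in each of these 4 libraries. The 8 cycling markers summed to 1880 and 2378 CPM at D5 and 2467 and 3097 at D10. Endoderm genes stayed at 0.0517 CPM or below in these 4 libraries and neural crest genes at 2.13 or below. The part of these markers in the receptor differences was not tested.

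During neural induction without XAV939, 4 receptors were at least 2-fold higher in D5_dSMADi than in D0: FZD2 (3.98-fold, 3.83 to 4.14), FZD3 (3.31-fold, 3.21 to 3.42), FZD5 (3.04-fold, 2.87 to 3.23) and FZD1 (2.88-fold, 2.05 to 4.11). Among all genes 15.7% were as much higher and 24.8% as much lower. FZD10 alone was lower by this measure, on 4 UMIs against 9 (log2 ratio -1.24, -3.39 to 0.60). FZD7 had a log2 ratio of -0.03 (-0.09 to 0.03), and FZD8 was 1.59-fold lower. The summed family was 2.52-fold higher than at D0. With XAV939 the ratios to D0 were 7.64-fold for FZD5, 7.17-fold for FZD1, 3.83-fold for FZD2, 3.46-fold for FZD3 and 1.93-fold for FZD8. D0 cells also had the highest median depth.

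From D5 to D10, 5 receptors had log2 ratios in opposite directions without and with XAV939, with intervals that leave out 0. The difference between the ratios was not tested. The share of all genes that do so was not counted, so this count has no background. At this depth intervals leave out 0 for small differences too, such as those of FZD2. FZD5 was at -0.54 without and 0.71 with XAV939, and FZD8 at -0.31 and 0.78. FZD7 (0.36 and -0.53), FZD6 (0.33 and -0.34) and FZD2 (0.16 and -0.10) were higher without and lower with it. FZD9 was 2.59-fold higher at D10 without XAV939, and FZD1 1.83-fold higher with it. FZD5 (1.64-fold) and FZD8 (1.72-fold) were past 1.5-fold with XAV939, and no other member with more than 10 UMIs was past it over these days.

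Most of the family was far lower at D24 than at D22, with FZD3 as the main exception. Of 10 receptors 8 were at least 2-fold lower at D24, where 18.9% of all genes were, and none was 2-fold higher, where 15.3% of all genes were. FZD7 was 25.3-fold lower, FZD5 9.24-fold, FZD2 8.11-fold, FZD4 5.47-fold, FZD1 5.27-fold, FZD9 3.78-fold and FZD8 3.53-fold. FZD10 was 2.15-fold lower on 4 UMIs against 16, with level intervals that overlap, so a difference was not detectable for it. FZD6 had a log2 ratio of -0.44 (-0.71 to -0.17) and FZD3 of 0.20 (0.17 to 0.22). The median log2 ratio was -2.16 over the members and -0.11 over all genes. From D24 to D26 FZD2 was 5.54-fold lower again and FZD6 1.74-fold. The other members with more than 10 UMIs at D26 were within 1.60-fold of D24. At D22 6 receptors stood at 10 CPM or above (FZD1, FZD2, FZD3, FZD5, FZD7, FZD8), and at D24 and D26 FZD3 alone, with 89.7% and 92.3% of the family's UMIs. In the order of levels, FZD8 and FZD1 followed FZD3 on both days, and their intervals overlapped at D24. FZD4, FZD7 and FZD9 overlapped each with the next at D24, and FZD2, FZD4, FZD9 and FZD7 at D26.

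The libraries differed as much in their cells. By named class, most D22 cells were PNP-like or NNP-like, and most D24 and D26 cells were Glut-like or GnRH-GABA-like. Clusters named from fixed markers gave 17369 Glut-like (glutamatergic markers such as TBR1 and SLC17A6), 6678 NNP-like (NEUROG1, NEUROD4, NHLH1), 2080 GnRH-GABA-like (GNRH1, DLX5, GAD2), 1452 IRX-like (IRX1, IRX2, NR2F1) and 1296 PNP-like (TOP2A, MKI67) cells of 29686, and 811 cells stayed unnamed. The names are rebuilt and can differ from the study's. Of the Glut-like clusters, those led by D24 and D22 cells had no marker of the list among their 10 leading genes, and the D22 IRX-like cluster scored high for cycling markers too. The 8 cycling markers summed to 2097, 83.8 and 21.2 CPM at D22 to D26. Fewer cells of a type and less RNA per cell cannot be told apart in the library sums, so levels within classes follow.

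Within D22 the receptors differed in their pattern over the classes, relatives of 1 branch included. FZD5 was highest in PNP-like cells (26.2 CPM), then NNP-like (13.8), IRX-like (4.02) and Glut-like cells (2.28). FZD8 was alike in PNP-like (28.9) and NNP-like cells (28.1), and lower in Glut-like (6.62) and IRX-like cells (4.93). FZD1 was highest in NNP-like cells (41.4), then PNP-like (34.0), IRX-like (24.7) and Glut-like (6.51). FZD2 went from 61.5 in PNP-like through 49.2 in IRX-like and 36.2 in NNP-like to 8.36 in Glut-like cells. FZD3 stood at 205, 171, 179 and 209 CPM in PNP-like, IRX-like, NNP-like and Glut-like cells, the narrowest range of the family as a fold. FZD6 stood at 2.88, 2.31, 3.14 and 4.78, the only receptor beside FZD3 with its highest value in Glut-like cells. For FZD3 this value, 209 CPM, is so near the 205 of PNP-like cells that their order is not settled.

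**Figure D5:**
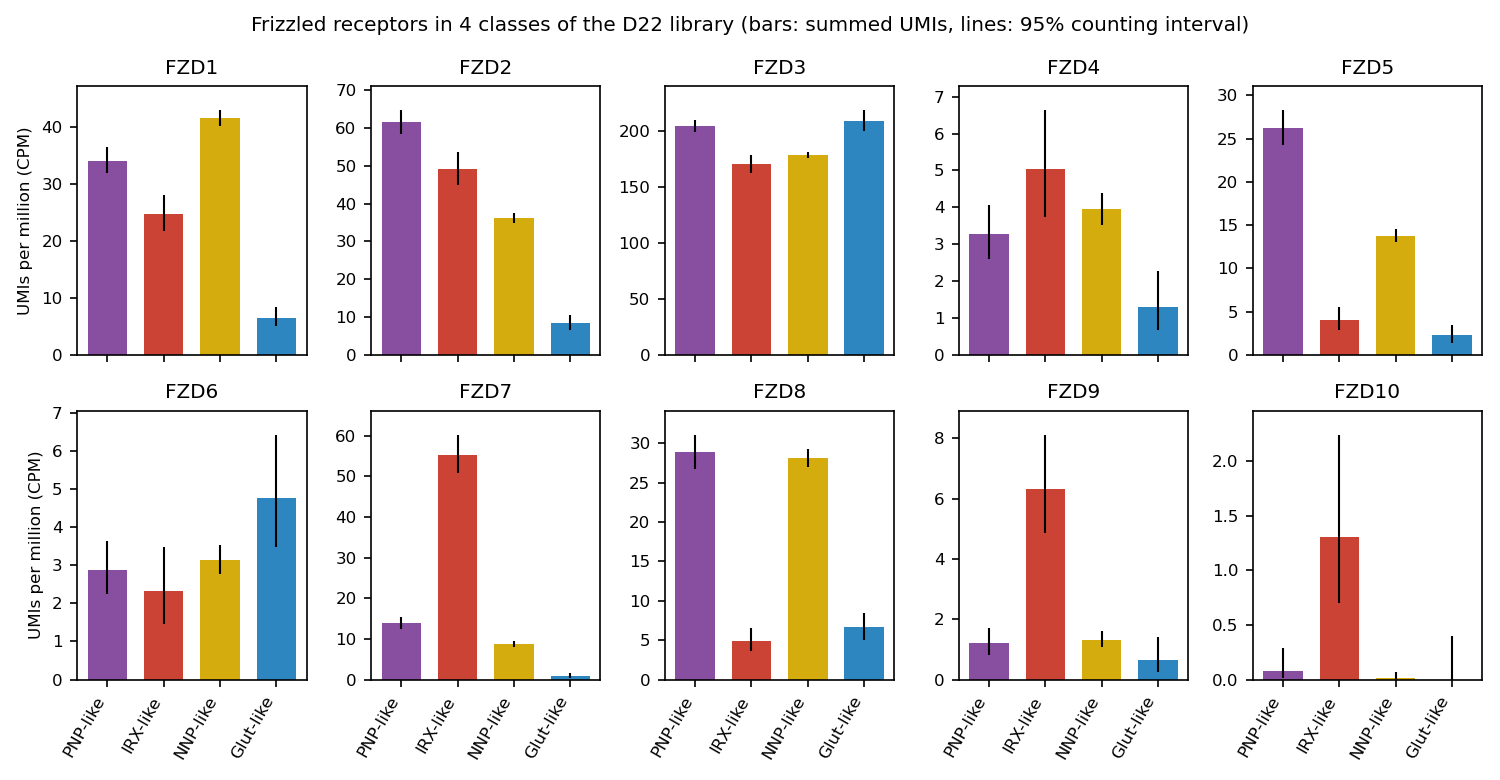
Level of each receptor in CPM (vertical axis, from 0, its own scale in each panel) in the PNP-like, IRX-like, NNP-like and Glut-like cells of D22, with lines for the 95% counting interval. FZD7, FZD9 and FZD10 are highest in IRX-like cells, FZD5 in PNP-like cells at 26.2 CPM, and FZD3 is between 171 and 209 CPM in all 4. FZD4 too has its highest value in IRX-like cells, on 50 UMIs (5.03 CPM, against 3.94 in NNP-like cells).

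The D22 IRX-like cells differed from the PNP-like cells by at least 2-fold in 5 members of the family. FZD7 was 55.3 CPM against 13.9 (log2 ratio 1.99, 1.79 to 2.18), FZD9 6.33 against 1.2 (2.40, 1.75 to 3.08) and FZD10 1.31 against 0.0799 on 13 and 2 UMIs (4.03, 1.89 to 7.22). FZD5 (log2 ratio -2.70, -3.20 to -2.24) and FZD8 (-2.55, -3.00 to -2.13) were lower. Under 2-fold, FZD1 (-0.46), FZD2 (-0.32) and FZD3 (-0.26) were lower and FZD4 (0.62) higher, with intervals that leave out 0, and the interval of FZD6 included 0. That is 3 receptors at least 2-fold higher and 2 lower, with 11.1% and 9.03% of all genes as background. Of the 22 FZD10 UMIs of D22 to D26, 19 came from IRX-like cells (86.4%, 65.1 to 97.1), which were 4.89% of the cells and held 5.71% of all UMIs. They also held 34.6% of the FZD7 UMIs and 22.8% of the FZD9 UMIs, and 2.01% of the FZD5 UMIs.

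NNP-like cells came in 2 clusters that differed in FZD5. The cluster led by SSTR2, NEUROD4 and NHLH1 had 5.47 CPM of FZD5 and the one led by PLS3, ATP2B4 and C1orf61, with DLL1, had 25.6 (log2 ratio -2.23, -2.43 to -2.03). The second cluster scored nearly as high for PNP-like as for NNP-like markers, and the FZD5 level of PNP-like cells was 26.2 CPM, and the pooled 13.8 of NNP-like cells holds both. FZD1 was the reverse, 51.5 against 27.1 CPM (0.93, 0.82 to 1.04). FZD8 (28.6 and 27.4) and FZD3 (181 and 176) had intervals that include no difference.

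Glut-like cells were lower than NNP-like cells of the same library in FZD7 (log2 ratio -3.52 on 7 UMIs), FZD1 (-2.67), FZD5 (-2.59), FZD2 (-2.11), FZD8 (-2.09) and FZD4 (-1.60), and higher in FZD6 (0.61, 0.11 to 1.07) and FZD3 (0.22). Glut-like cells of D24 and D22 had FZD1 at 6.76 and 6.51 CPM, FZD8 at 7.47 and 6.62, FZD5 at 1.47 and 2.28 and FZD3 at 215 and 209, with intervals of the ratio that include 0. The intervals of FZD4 and FZD9 included 0 too. FZD6 was lower at D24 (2.63 against 4.78 CPM, log2 ratio -0.86, -1.35 to -0.35), as was FZD7 on 12 and 7 UMIs (0.198 against 0.760 CPM, -1.94, -3.40 to -0.35). FZD2 was lower at D24 (4.27 against 8.36) and again at D26 (0.393, log2 ratio to D24 -3.44, -4.04 to -2.89). The Glut-like cells of each day lay mostly in a cluster of their own (690 of 806 cells at D22, 7477 of 7940 at D24 and 8545 of 8623 at D26). Within this class FZD1 and FZD8 did not show the difference of 5.27-fold and 3.53-fold between the whole libraries of D22 and D24, and FZD2 went on to lower values.

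FZD3 was the most captured receptor in both kinds of neurons at D24 and D26, and of the others FZD5 and FZD6 had intervals that leave out 0 on both days. GnRH-GABA-like cells, whose cluster is led by GNRH1, had FZD3 at 189 CPM on both days, and Glut-like cells at 215 and 249 (log2 ratios -0.19, -0.29 to -0.09, and -0.40, -0.46 to -0.34). An unnamed cluster of 274 cells, of which 90.5% were called doublets, was led by GNRH1 too and stands outside the class, with FZD3 at 237 CPM. At D26 FZD5 was 3.07 CPM in GnRH-GABA-like and 1.56 in Glut-like cells (log2 ratio 0.98, 0.42 to 1.5), and at D24 2.98 and 1.47 (1.02, 0.09 to 1.84). FZD8 was lower in GnRH-GABA-like cells at D26 (2.91 against 9.76, -1.74, -2.25 to -1.27), and at D24 the interval included 0 (-0.43, -1.06 to 0.14). FZD2 was higher at D26 (2.38 against 0.393 CPM, on 31 and 30 UMIs, 2.60, 1.82 to 3.37) and its interval included 0 at D24, and over D22 to D26 its level in this class was 3.78 CPM, or 6.13 at a higher clustering resolution. FZD6 had 1 UMI in GnRH-GABA-like cells at D24 and 4 at D26, against 159 and 122 in Glut-like cells (log2 ratios -3.63, -8.94 to -1.13, and -2.38, -4.28 to -0.99).

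IRX-like cells had the higher FZD7 level after D22 too. At D24 they had 4.55 CPM of FZD7 against 0.198 in Glut-like cells, on 20 and 12 UMIs (log2 ratio 4.52, 3.42 to 5.68), and at D26 8.25 against 0.0524, on 23 and 4 UMIs (7.30, 5.75 to 9.29). FZD2 was 10.9 against 4.27 CPM at D24 and 6.1 against 0.393 at D26, and FZD1 15.8 against 5.84 at D26 (1.43, 0.95 to 1.88). FZD8 was lower on both days (-1.45 and -1.77). Their own FZD7 level was 12.2-fold lower at D24 than at D22, when 630 of the 639 IRX-like cells belonged to another, more cycling cluster. That cluster still held 99 of the 546 IRX-like cells at D24 and 15 of the 267 at D26. Its part in the FZD7 UMIs of these days was not tested.

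Over the 8 libraries, the genes whose log2(CPM + 1) was most like that of FZD5, among 8390 genes, were SMAD4 (Pearson's r = 0.99), SGPL1 (0.99) and CEP135 (0.98). For FZD2 they were CMTM3 (1.00), AAMDC (0.99) and CBX2 (0.99), for FZD3 TTBK2, TLE4 and LSAMP (0.97 each), and for FZD1 MZT1 (0.97), AC092958.1 (0.96) and RCBTB2 (0.96). FZD7 was most like HDAC1, ARHGAP11A and MAGT1 (1.00 each), and FZD8 like TSPAN14 (0.90), IL17RD (0.86) and KATNBL1 (0.84). Among the 6 receptors compared, those with 20 CPM or more in 1 library, FZD2 and FZD7 were most alike (0.95). The points share a run or a reference within D0 to D10 and within D22 to D26 and are not independent.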

How the data were processed

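RNA of single WA09 cells was measured on 10x Genomics droplets. The authors aligned reads to GRCh38 and deposited whole-number UMI counts per gene and barcode, unnormalized. Per the submitters' notes Cell Ranger 3.1 was used, while the file headers name 6.1.2 (D0 to D10) and 3.1.0 (D22 to D26). The study's stated cell limits were applied. For D5 and D10 the deposited barcodes (2480, 2919, 2778 and 2638) equal the cells the study counts, and its limits kept 2419, 2815, 2416 and 2168. The D0 limit on genes per UMI was read as an upper limit after the data were seen (1008 cells, or 1009 without it), since as stated it leaves almost no cell.

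UMIs were summed per library or class and divided by all UMIs (CPM). Intervals are exact Poisson (levels), Clopper-Pearson (shares) and binomial (ratios), at 95%. A receptor with 3 UMIs or fewer in both groups got no ratio. Thinning was to 10000 or 1500 UMIs. Clusters came from 2000 variable genes without the receptors, 30 principal components, 20 neighbours and leidenalg 0.10.2 (resolution 0.3 early, 0.5 late). Names needed 200 cells (late) or 50 (early), doublet calls in under 50% of cells, 3 detected markers, a score of 0.5, and either a marker of the list among the 10 leading genes or a lead of 0.3, limits set after values were seen. Doublets, scored in own code (6% expected, score above 0.25, 1.78% to 6.44% called), stayed in. All 10 receptors and fixed pathway lists were named. The members and lists were chosen with earlier results of these data known. The calculations were checked on simulated counts. The summed level of the retina markers is not reported here.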

Additional observations from a re-analysis of the deposited data

Results flagged for a closer look

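Among the receptors, and the pathway genes past 2-fold on either day, 3 genes had ratios in opposite directions with XAV939 at D5 and at D10. FZD6 had a log2 ratio of 0.093 at D5 and -0.58 at D10, FZD7 0.34 and -0.54, and LGR4 -0.013 and 1.44. With 1 library per condition the difference between the days was not tested, and at D5 the intervals of FZD6 and LGR4 include 0. The share of all genes with opposite signs on the 2 days was not counted, so this count has no background. Among the pathway genes within 2-fold, ROR2 (-0.11 and 0.21), TSPAN12 (0.23 and -0.10) and RYK (0.041 and -0.15) also had opposite signs.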

How the results depend on the processing

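The ratios of FZD1, FZD5 and FZD8 with XAV939 were past 2-fold under all 8 settings tried on both days (FZD1 1.22 to 1.39 at D5 and 1.64 to 1.80 at D10, FZD5 1.28 to 1.39 and 2.55 to 2.64, FZD8 1.5 to 1.73 and 2.61 to 2.87, log2), as was that of FZD9 at D10 (-1.55 to -1.14). FZD10 at D10 ran from -3.16 to -0.33. At D5 the signs of FZD2 (-0.13 to 0.05), FZD3 (-0.06 to 0.17), FZD4 (-0.20 to 0.52) and FZD6 (-0.02 to 0.13) each held in 7 of 8 settings. The sign of FZD10 at D5 (-1.08 to 0.56) held in 5 of 6. The log2 ratio of the summed family, 0.30 at D5, was 0.27 as a mean over cells, 0.27 without mitochondrial and ribosomal protein genes and 0.25 with median-of-ratios scaling. At D10, 0.52, it was 0.56 with the stricter filter on cells and 0.48 without those genes. The count of receptors 2-fold lower went from 0 to 1 at D5 as a mean over cells, and from 2 to 1 at D10 with the stricter filter and with more than 50 UMIs; each time the receptor was FZD10. Leaving out mitochondrial and ribosomal protein genes raised all levels by 0.30 to 0.61 on the log2 scale, since they make up part of every total. Of 90 class levels, 82 stayed within their interval at the lower of the other clustering resolutions, 70 at the higher and 86 without doublets. At the higher the shifts ran from -1.18 to 1.80 (log2). Neural progenitor-like cells of D0 to D10 were then 2780 in place of 1519, with FZD5 at 144.5 CPM in place of 41.4, FZD8 at 11.6 in place of 3.41 and FZD1 at 5.18 in place of 2.55. Of the 1519 cells, 1517 came from D10_dSMADi, and the libraries of the 2780 are not given here. A change of class and a change in the mix of treatments thus cannot be told apart in these 3 shifts. FZD8 in PNP-like cells of D0 to D10 was 14.8 in place of 9.32, and in GnRH-GABA-like cells FZD2 was 6.13 in place of 3.78 and FZD7 0.352 in place of 0.165. Without doublets FZD8 in newborn neuron-like cells was 1.24 in place of 3.27, FZD5 18.7 in place of 30.5, and FZD6 in GnRH-GABA-like cells 0.174 in place of 0.274. Depth limits FZD10 everywhere, and FZD4, FZD6, FZD7 and FZD9 in the neurons. No paired analysis was possible because each condition is 1 library.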

Other observations

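FZD6 was higher in Glut-like than in GnRH-GABA-like cells, and the gene before it on the same strand of chromosome 8, BAALC, which ends 68127 bases before FZD6 starts, was higher there too. BAALC stood at 252 CPM in Glut-like and 46.2 in GnRH-GABA-like cells at D24, and at 71.2 and 13.8 at D26. At D22 it stood at 303 CPM in Glut-like, 59.3 in NNP-like, 29.8 in IRX-like and 16 in PNP-like cells, where FZD6 stood at 4.78, 3.14, 2.31 and 2.88. The FZD6 levels of IRX-like and PNP-like cells, on 23 and 72 UMIs, had a ratio whose interval includes no difference. BAALC-AS1, which overlaps FZD6 on the other strand, stood at 1.5 CPM in Glut-like cells at D24 and at 0.275 at D26. BAALC and FZD6 were set side by side after their values were seen.

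2 noncoding genes named for receptors were counted at D0 to D10. FZD10-AS1 had 7 UMIs at D0, 20 in D5_dSMADi, 35 in D5_XAV939, 14 in D10_dSMADi and 32 in D10_XAV939 (0.0922, 0.251, 0.404, 0.178 and 0.551 CPM). It had more UMIs with XAV939 on both days, with level intervals that overlap at D5 and not at D10. FZD10 itself had 4 UMIs without and 3 with XAV939 at D5, and 8 and 1 at D10. Both FZD10 ratios have intervals that include 0, so no direction can be read for it. FZD4-DT stood between 0.395 and 0.758 CPM.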
